A study of Mus musculus with 8 samples.

Results

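The response of Rbp2f/f mouse embryonic stem (ES) cells to removal of leukemia inhibitory factor (LIF) was measured by comparing 2 arrays of cells after 6 days without LIF with 2 arrays of the same genotype kept in LIF, chosen by their sample titles. These are 4 of the 8 arrays of the study, which also profiled Rbp2-/- cells in both media with 2 arrays each. Rbp2f/f cells carry a conditional (floxed) allele of the gene for RBP2, taken here to be KDM5A, a demethylase of lysine 4 on histone H3 encoded by Kdm5a, and the labels give them no recombinase or other agent. All groups were subconfluent ES cells in ES cell medium, and 6 ug of total RNA was labelled per array. The labels name no strain, clone or feeder layer. Below, the arrays with LIF are called L1 and L2 and those without LIF N1 and N2, after their replicate numbers. They call the samples biological replicates without saying that these came from separate cultures, so the p-values below measure the spread between these arrays, part of which may be technical.

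LIF binds a receptor made of LIFR and gp130 (Il6st) and acts through JAK kinases and the transcription factor STAT3. In mouse ES cells STAT3 sustains a set of naive pluripotency factors, among them Klf4 and Tfcp2l1, that work beside the core factors Oct4 (Pou5f1), Sox2 and Nanog. When LIF is removed from serum cultures, ES cells leave this state and start to make cells that resemble the early embryo, with primitive streak, mesoderm and endoderm genes coming on in turn. Every value below is a probe-set intensity on a linear scale as deposited, and every change is a difference of log2(intensity + 16), without LIF minus with LIF, with its standard error (SE) from the limma fit. Adding 16 shrinks the changes of dim genes. Because these are bulk samples, fewer cells of a type and less RNA per cell cannot be told apart.

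Of 10916 genes tested, 2226 (20.4%) changed on withdrawal at a limma adjusted p under 0.05. There were 1465 genes higher without LIF (13.4%) and 761 lower (6.97%), and these shares are the background for each list below. Genes were tested if their mean intensity over all 8 arrays reached 28.3. A gene dim in 1 medium could therefore be tested because of its signal in the other. The list counts and medians below share this limit. With a change of at least 1 on the log2 scale required as well, 1048 genes were higher (9.60%) and 568 lower (5.20%). Leaving out 1 array lowered the calls to 1173 without L1, 1331 without L2, 1196 without N1 and 891 without N2. They numbered 3329 without replicate 1 and 3367 without replicate 2 of Rbp2-/- with LIF, a group whose spread enters the fit. Where a list count of 3 or more moved strongly in this way, the values are given beside it. Smaller moves are not given beside the lists below. They lowered the decreases of the ES-restricted and naive lists, among others. The increases of the primitive streak, lateral mesoderm, epithelial-mesenchymal transition, Wnt, interferon and imprinted lists were lowered too, among others. Lost calls are given for genes followed through the alternatives and named below. List counts of 1 or 2 rest on single calls. The balance of the directions depended on scaling: 65.8% of the calls were increases on the values as deposited, 51.6% after quantile normalization and 41.3% after median centring. The median change of all genes was 0.07 as deposited and -0.10 after median centring. Replicate arrays correlated at 0.965 with LIF and 0.981 without across genes, which are not independent replicates, and arrays of different media at 0.868 to 0.889. Replicate 1 with LIF had a 3' to 5' signal ratio of 1.11 for Gapdh, a measure of RNA and labelling quality, against 0.82 to 0.85 on the other 3 arrays; its part in the results was not tested.

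The largest increases included receptors, ligands and transcription factors active at gastrulation. Aplnr, the receptor for the peptides apelin and Elabela that guides early mesoderm, read 9.1 and 9.5 with LIF and 1154.4 and 892.4 without. This was the largest change of any gene named here, at 5.35 ± 0.37 (adjusted p = 1.09e-06). Cdh11, a cadherin of mesenchymal cells, went from 8.6 and 5.5 to 462.5 and 330.9, a change of 4.15 ± 0.26. Bmp2, a bone morphogenetic protein ligand, read 26.3 and 4.7 against 422.6 and 444. Each of these genes was dim on both arrays with LIF and bright on both without. Absence of overlap between media was required when the largest increases were chosen, and 68.6% of all tested genes had it.

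Hmga2, a chromatin protein of embryonic and tumour cells, was already measurable with LIF at 391.3 and 266.4 and reached 3896.9 and 3495.2 without it, a change of 3.45 ± 0.26 (adjusted p = 2.2e-06). Igfbp4, a secreted binder of insulin-like growth factors that also restrains Wnt signalling, changed from 530.6 and 334.6 to 4769.4 and 4285.3. Amot, a scaffold protein of the Hippo pathway, changed from 166.1 and 191.8 to 2148.3 and 2065. The remaining genes among the 15 largest increases were Lhx1, Cyp26a1, Mixl1, Zfp703, Tmprss2, Wnt6, Klhl6, Gbp2 and Wnt5a, with changes between 3.18 and 3.93.

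The largest decreases included markers of undifferentiated ES cells. Dnmt3l, the cofactor of the de novo DNA methyltransferases, read 2143.8 and 1680.3 with LIF and 49.7 and 54.4 without, a fall of 4.81 ± 0.36 on the log2 scale (adjusted p = 2.2e-06). Dppa2, a chromatin protein of ES cells and early embryos, read 1458.1 and 910.6 against 43.3 and 46.9. Platr10, a long noncoding RNA associated with pluripotency, read 250.4 and 273.5 against 1.5 and 3.7. Fbxo15, an F-box gene used as a reporter of the ES state, and Eras, an ES-cell Ras protein, fell by 3.53 ± 0.40 and 3.37 ± 0.35. The other genes among the 15 largest decreases were Slc27a2, Olig2, L1td1, Tcf15, Lncenc1, Slc7a3, Pim2, Pla2g1b, Rbmxl2 and Fgf4, with changes between -3.67 and -3.09.

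**Figure D1:**
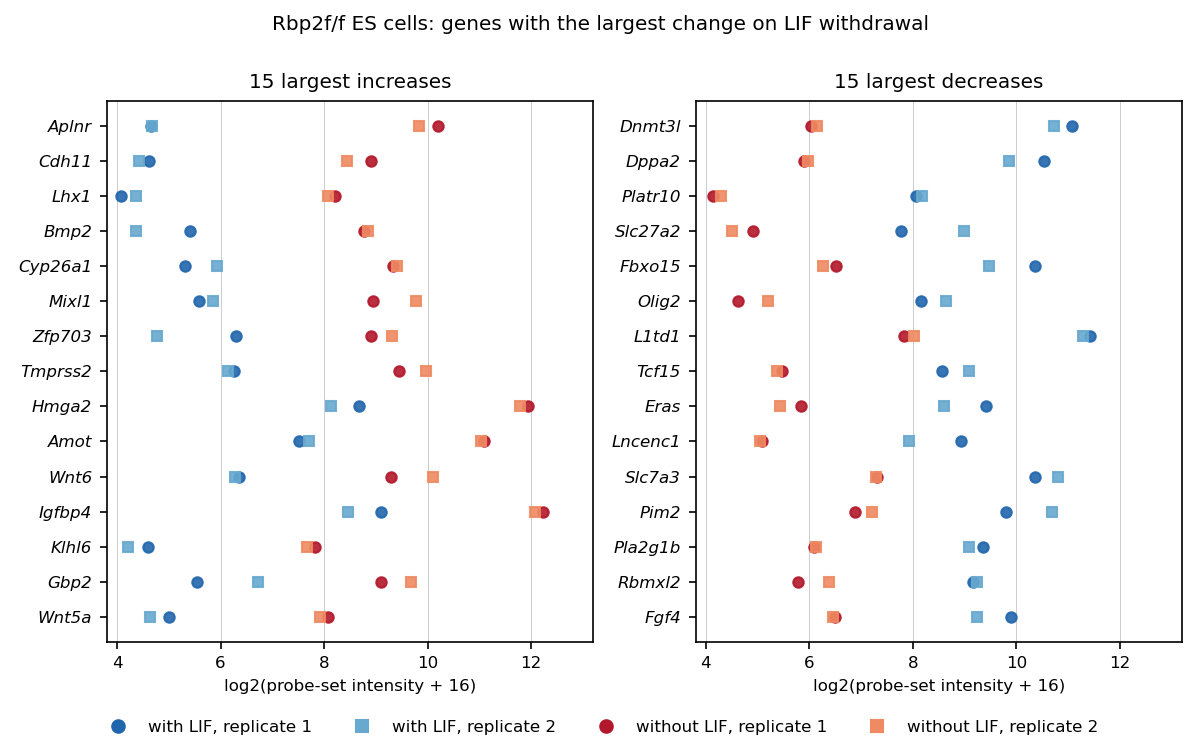
Log2(probe-set intensity + 16) on each of the 4 Rbp2f/f arrays (x axis) for the 15 called genes with the largest increase (left) and the 15 with the largest decrease (right). Blue symbols are arrays with LIF and red symbols arrays without it, and in every row the blue and red symbols stand apart, as the choice of these genes requires.

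In the core pluripotency list, 6 of 9 tested members fell and 0 rose, with a median change of -1.25 against 0.07 for all genes. Pou5f1 read 2654.2 and 3218.3 with LIF and 292 and 384 without, a change of -3.07 ± 0.32 (adjusted p = 2.81e-05). Sox2, its partner on DNA, read 3441 and 3309.4 against 440.1 and 415. Nanog, a homeobox factor that stabilises the state, read 1342.7 and 1788 against 356.1 and 317.7. The signal of these 3 genes was lower on both arrays without LIF than on either array with it, and stayed above the filter of 28.3. Arrays of the 2 media did not overlap, in either direction, for 68.6% of all tested genes. Rest, Sall4 and Sall1 also fell, and Zfx, Thap11 and Zfp281 did not pass, with changes of 0.39, 0.18 and -0.13. The 6 decreases among core factors became 3 without L1 or N2. Leaving out 1 array ended the call of Rest without L1, L2, N1 or N2 (adjusted p up to 0.0754).

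Of 16 naive pluripotency factors, 13 fell and 2 rose, with a median of -1.70. Nr0b1 (Dax1), a nuclear receptor of the ES network, read 769.7 and 421.3 with LIF and 62.9 and 51.6 without, and Esrrb, an orphan nuclear receptor, fell by 2.42 ± 0.29. Zfp42 (Rex1), a zinc finger marker of the naive state, read 305.5 and 234.6 against 39.7 and 43.1. The Krüppel-like factors Klf2 and Klf4 fell by 1.99 ± 0.31 and 2.05 ± 0.26, whereas Klf5 did not pass (-0.40 ± 0.28, adjusted p = 0.344). The members that went up were Tbx3 and Sp5. Tbx3 encodes a T-box factor that is also used in mesendoderm and changed from 113.8 and 69.7 to 275 and 259.3. Sp5, a direct Wnt target that is also active in the primitive streak, changed from 29.7 and 85.9 to 432.6 and 426.4 (2.71 ± 0.52).

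All 20 tested genes of the ES-restricted list fell, with a median of -2.65, and 4 more listed genes were not tested. Dppa5a, an RNA-binding protein and among the brightest of them, went from 9369.2 and 8709.1 to 2409.5 and 2411.9. Utf1, a chromatin factor of ES cells, went from 1374.4 and 2264.9 to 252.9 and 292.5. Of the 18 formative epiblast genes, which mark the step after the naive state, 8 fell and 3 rose. Pim2, a kinase, fell by 3.19 ± 0.36, and Tcf15, a helix-loop-helix factor, fell by 3.41 ± 0.39. Fgf5, the classical epiblast marker, had values of 29.7 and 91.4 against 129 and 150.7 and did not pass (adjusted p = 0.192). Otx2, a homeobox factor of the epiblast, did not pass either, at -0.43 ± 0.49. Lef1, Nkd1 and Cldn6 were the members that rose. The 3 increases among formative genes became 1 without L1 or N2. The 8 decreases among formative genes became 5 without L2. A call was lost for Lef1 without L2 or N1 (adjusted p up to 0.0763).

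Components of the LIF pathway come first, and genes downstream of it follow. Of 15 tested receptor and pathway genes, 4 rose and 1 fell, with a median of 0.60. Jak1 and Jak2, the kinases bound to the receptor, rose by 1.12 ± 0.27 and 1.23 ± 0.26. The receptor genes Lifr and Il6st did not pass, at 0.60 ± 0.30 and 0.52 ± 0.29, nor did Stat3 at 0.66 ± 0.28 (adjusted p = 0.104). Socs2, an inhibitor of cytokine signalling, read 808.7 and 948.2 with LIF and 246.3 and 216.6 without, and was the member that fell. Pias1 and Ptpn11 also rose. The 4 increases among pathway genes became 1 without L1 or N1 and 0 without N2. Removing 1 array ended the call for Jak1 without L1, N1 or N2 (adjusted p up to 0.112), Jak2 without N2 (adjusted p up to 0.0951) and Pias1 without L1, L2, N1 or N2 (adjusted p up to 0.26).

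Among 20 STAT3 and LIF target genes, 8 fell and 1 rose, with a median of -0.58. Klf4 read 723.6 and 620.5 with LIF and 143.3 and 157.4 without. Mycn, the Myc family member of ES cells, fell by 1.75 ± 0.26 and Tfcp2l1, a factor sufficient for much of the LIF effect, by 1.76 ± 0.29. The call of Mycn was lost when all its probe sets were averaged (limma adjusted p = 0.12). Pim1 and Pim3, kinases induced by STAT3, and Sgk1 also fell. Socs3, the feedback inhibitor induced directly by STAT3, read 628.2 and 428.4 against 265.9 and 291.9. Its arrays did not overlap between media, yet the change of -0.86 ± 0.34 missed the threshold (adjusted p = 0.0865, range over the alternatives 0.0179 to 0.423). Of all genes tested, 68.6% had arrays that did not overlap. Myc itself was at 0.05 ± 0.35. When an array was dropped, significance was lost for Pim1 without L2 or N1 (adjusted p up to 0.123).

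Promoter windows from RefSeq (build GRCm38.p6, 250 bases before to 50 after a gene start) were searched on both strands for 5 short motifs, and a window existed for 8855 of the 10916 tested genes. Of the windows below, 4 are shown because they hold letters bound by STAT or Oct4 factors, and that of Igfbp4 because it belongs to a leading gene that rose and holds a TATA box sequence. They are written 5′ to 3′ on the strand of the gene, and capitals mark every match to 1 motif on either strand. Socs3 (chr11:117969317-117969616, minus strand) and Esrrb (chr12:86360867-86361166, plus strand, 1 of 2 windows of the gene) hold TTCNNNGAA, the spaced palindrome bound by STAT dimers. Pim2 (chrX:7878056-7878355, plus strand) and Zfp42 (chr8:43306960-43307259, minus strand) hold ATGCAAAT, the octamer bound by Oct4 and its relatives. Igfbp4 (chr11:99040994-99041293, plus strand), which rose, holds TATAAA starting 28 bases before its gene start.
Socs3: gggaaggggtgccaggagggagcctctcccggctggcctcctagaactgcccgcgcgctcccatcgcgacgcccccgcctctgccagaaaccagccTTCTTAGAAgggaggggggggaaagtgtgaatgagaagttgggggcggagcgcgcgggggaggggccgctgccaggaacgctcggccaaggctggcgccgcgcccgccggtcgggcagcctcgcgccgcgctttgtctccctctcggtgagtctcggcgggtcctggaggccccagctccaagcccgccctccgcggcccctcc
Esrrb: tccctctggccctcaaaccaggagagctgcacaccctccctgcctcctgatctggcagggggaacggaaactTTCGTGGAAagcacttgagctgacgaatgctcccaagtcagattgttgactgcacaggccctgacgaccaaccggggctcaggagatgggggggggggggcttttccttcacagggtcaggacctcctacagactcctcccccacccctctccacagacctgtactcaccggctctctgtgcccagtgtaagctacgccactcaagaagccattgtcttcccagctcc
Pim2: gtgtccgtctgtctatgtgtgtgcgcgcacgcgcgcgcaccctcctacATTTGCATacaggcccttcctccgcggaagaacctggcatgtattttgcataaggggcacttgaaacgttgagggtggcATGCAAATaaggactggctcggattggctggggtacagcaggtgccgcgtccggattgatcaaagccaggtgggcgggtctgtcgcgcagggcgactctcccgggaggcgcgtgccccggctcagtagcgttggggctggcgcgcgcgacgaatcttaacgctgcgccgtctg
Zfp42: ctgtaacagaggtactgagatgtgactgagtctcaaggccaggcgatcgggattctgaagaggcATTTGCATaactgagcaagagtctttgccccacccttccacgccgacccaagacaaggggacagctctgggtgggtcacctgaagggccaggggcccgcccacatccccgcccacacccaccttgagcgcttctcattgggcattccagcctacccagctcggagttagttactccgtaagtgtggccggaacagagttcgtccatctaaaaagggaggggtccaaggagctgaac
Igfbp4: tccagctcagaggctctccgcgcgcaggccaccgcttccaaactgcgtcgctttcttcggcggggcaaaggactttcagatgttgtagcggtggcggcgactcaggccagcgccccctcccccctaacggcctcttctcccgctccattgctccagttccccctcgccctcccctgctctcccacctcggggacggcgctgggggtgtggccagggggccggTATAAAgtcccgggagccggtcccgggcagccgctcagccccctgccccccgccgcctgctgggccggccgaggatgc
The 11362 windows of tested genes are the background for the called genes, since the 32851 windows of all genes include many that could not be called. TTCNNNGAA was present in 6.38% of windows of tested genes (8.3% of all windows), in 5.21% for genes that rose and in 5.63% for genes that fell. ATGCAAAT was present in 1.23% for tested genes (1.74% of all), 1.5% for genes that rose and 1.71% for genes that fell. TATAAA was present in 6.95% for tested genes (13.6% of all), 7.88% for genes that rose and 7.34% for genes that fell. The E-box CAGGTG, bound by SNAIL and ZEB repressors, was in 18% for tested genes (20.2% of all), 15.7% for genes that rose and 22.3% for genes that fell. CACGTG, the E-box of Myc, was in 10.1% for tested genes (7.15% of all), 7.88% for genes that rose and 10.5% for genes that fell. These shares were not tested against each other. A match is a description of letters in a window and was not tested as a binding site.

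Primitive streak genes, which mark the site where mesoderm and endoderm leave the epiblast, included 11 that rose and 0 that fell among 18 tested, with a median of 1.5. That median ranged from 0.79 to 2.9 over the alternative fits. Mixl1, a homeobox factor of nascent mesendoderm, read 31.6 and 41.4 with LIF and 477.5 and 856 without (3.65 ± 0.61). Eomes, a T-box factor that starts definitive endoderm and cardiac mesoderm, read 63.7 and 75.6 against 576 and 629.7. Lhx1, a LIM homeobox factor of the streak, went from 0.9 and 4.5 to 280.9 and 255. The signals without LIF were above those with LIF on every array for these 3 genes, while 68.6% of all tested genes had no overlap between media. Evx1, Cdx2, Foxa2, Fgf8, Wnt3, Mesp1 and Gsc rose as well. Brachyury itself is not named by a probe set with 1 gene symbol and was not analysed here. Below the intensity filter were 6 of 24 measured members of this list, Tbx6, Wnt3a and Cer1 among them. With 1 array left out, the call was lost for Mesp1 without L1, N1 or N2 (adjusted p up to 0.137) and Wnt3 without L2 or N2 (adjusted p up to 0.15).

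Of 20 tested factors of lateral and cardiac mesoderm, 17 rose and 0 fell, with a median of 1.81. Over the alternative fits, with their own filters, this median ranged from 1.07 to 2.32. Another 12 of 32 measured members, such as Hand2, Tbx5 and Mef2c, were below the intensity filter. Hand1, a helix-loop-helix factor of lateral and extraembryonic mesoderm, read 113.8 and 87 against 1111 and 490.7. Msx1 and Msx2, homeobox targets of BMP signalling, rose by 2.71 ± 0.39 and 2.53 ± 0.33. Gata6, a zinc finger factor shared by mesoderm and endoderm, read 47.8 and 13.6 against 301.8 and 217.1. Pdgfra and Pdgfrb, receptors carried by mesoderm and its derivatives, rose by 1.88 ± 0.30 and 2.18 ± 0.27.

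Markers of mature derivatives were also measured. Blood and endothelial genes had 3 members higher and 2 lower among 17 (17.6% and 11.8%, against 13.4% and 6.97% of all tested genes). Of 30 measured members, 13 were below the intensity filter, Tal1, Cdh5 and Cd34 among them. Runx1 and Kdr, regulators of early blood and vessels, rose, while Tek and Etv2 fell. The embryonic globin Hbb-bh1 read 1.8 and 1.2 with LIF and 808.5 and 13.8 without, so its call (adjusted p = 0.0238) rested on N1. Hba-x, another embryonic globin, read 4.7 and 3.4 against 169.7 and 6.9, and Hbb-y read 0.4 and 0.2 against 296.8 and 0.6; neither passed. Ptprc, a marker of leukocytes, was under the intensity filter of 28.3 on every array. In the contractile list 3 of 8 tested genes rose, namely Tnnc1, Actc1 and Tnni1, whereas the cardiomyocyte markers Tnnt2 and Myl7 were under the filter on all 4 arrays. In that list 13 of 21 measured members were below the filter. The 3 increases among blood and endothelial genes became 1 without L2 or N1 and 5 without N2. Leaving out 1 array ended the call of Actc1 without L2 or N2 (adjusted p up to 0.115), Hbb-bh1 without L1, L2, N1 or either Rbp2-/- array with LIF (adjusted p up to 0.242) and Kdr without L2 or N1 (adjusted p up to 0.164). A call was lost for Tek without N2 (adjusted p up to 0.135) and Tnni1 without L2 or N1 (adjusted p up to 0.152).

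Genes of the extraembryonic and visceral endoderm list showed 13 increases and 1 decrease among 22 tested, with a median of 1.29. Another 11 of 33 measured members, Ttr, Hnf4a and Sox7 among them, were below the intensity filter. Sox17, a factor of definitive and extraembryonic endoderm, read 10.5 and 5.6 against 153.6 and 106.9 (2.59 ± 0.32). Foxa2, a forkhead factor of endoderm and node, read 38 and 20.5 against 137.2 and 115.4. Cxcr4, a chemokine receptor of definitive endoderm, went from 14.8 and 15.6 to 181.1 and 123.5. The visceral endoderm markers Afp and Apoa1 were under the filter on every array, and Apoa2 was the member that fell. Of 18 trophoblast genes 6 rose and 3 fell. The risers included Cdx2, Eomes and Hand1, which are streak or mesoderm genes too, and Tfap2c, Rhox6 and Rhox9 fell. The 3 decreases among trophoblast genes became 0 without L1. Removing 1 array ended the call for Tfap2c without L1 (adjusted p up to 0.0619).

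Neural genes included 5 members higher and 4 lower among 13 tested. Another 16 of 29 measured members, the neural progenitor markers Sox1 and Pax6 among them, were below the intensity filter. Olig2, a helix-loop-helix factor of the neural tube, read 267.6 and 381.4 with LIF and 8.7 and 20.6 without. Neurod1, Olig1 and Tubb3 also fell. Sox11 and Sox4, factors of neural and other embryonic progenitors, rose by 2.17 ± 0.48 and 1.19 ± 0.32, and Gap43, Ncam1 and Nrcam rose too. Of 39 Hox genes, which pattern the body axis, 7 were bright enough to be tested. Hoxb2 read 4.7 and 4.4 against 180 and 98.7, and Hoxd9 and Hoxd8 also rose. The 5 increases among neural genes became 2 without L1 or N2 and 3 without L2. When an array was dropped, significance was lost for Hoxd8 without L2 or N2 (adjusted p up to 0.208).

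**Figure D2:**
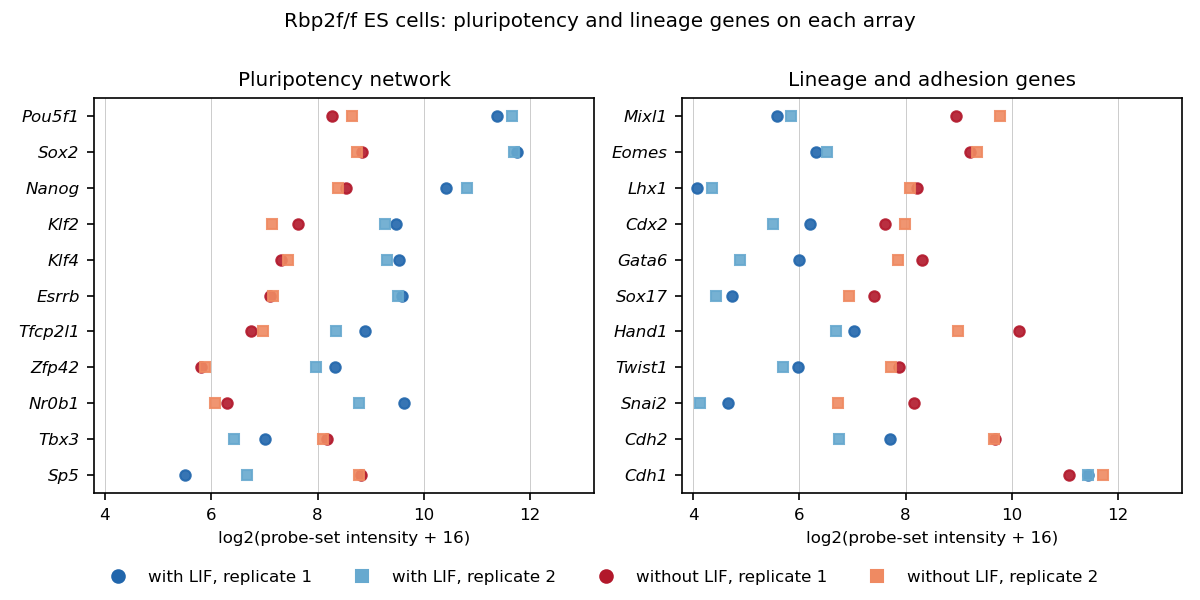
Log2(probe-set intensity + 16) on each of the 4 Rbp2f/f arrays (x axis) for 11 pluripotency genes (left) and 11 lineage and adhesion genes (right). Arrays with LIF are blue and arrays without it are red. Tbx3 and Sp5 are higher without LIF while the other pluripotency genes shown are lower, and Cdh1 has a change of -0.03 while the lineage genes shown are higher.

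Regulators and markers of epithelial-mesenchymal transition, the conversion of sheet-like to migratory cells, rose in 18 of 20 cases and fell in 0, with a median of 1.57. Snai2, a zinc finger repressor of epithelial genes, read 9.1 and 1.6 with LIF and 271.2 and 89.9 without, and Snai1 and Twist1 rose by 1.65 ± 0.25 and 1.96 ± 0.26. Cdh2 (N-cadherin) read 193.6 and 91.6 against 803.8 and 795.9. Vim (vimentin) read 2477.9 and 1475.9 against 6688.6 and 6532.9. Epithelial genes did not show the opposite direction: 13 of 31 rose and 0 fell, with a median of 0.80. Krt19 and Dsc2, a keratin and a desmosomal cadherin, rose by 2.66 ± 0.26 and 2.79 ± 0.29. Cdh1 (E-cadherin) was at -0.03 ± 0.39 and Epcam at -0.52 ± 0.37, and neither passed. The 13 increases among epithelial genes became 7 without L1 and 6 without N2.

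Collagen and matrix genes included 25 that rose and 0 that fell among 42 tested, with a median of 1.20. Fn1 (fibronectin) read 2516.1 and 2036.7 against 6624.5 and 6770.5, and Col5a1 read 104 and 111.9 against 697.9 and 597.8. Genes of smooth muscle and the actin cytoskeleton rose in 13 of 25 cases, with Tpm1, a tropomyosin, at 1.89 ± 0.20. Acta2 read 3596.1 and 1017.1 with LIF and 3859 and 5855.2 without, and did not pass (adjusted p = 0.0539). The 13 increases among smooth muscle genes became 7 without L2 and 2 without N2. The 25 increases among matrix genes became 16 without L2.

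Markers of fibroblasts, the cells used as feeders for ES cultures, moved with the mesenchymal and matrix genes. Of 11 such markers 7 were tested, and 5 rose and 0 fell. The summed intensity of all 11 was 618.8 and 385.7 with LIF and 1619.3 and 1536.2 without. Col1a1, Col1a2, Col3a1, Postn and Twist2 rose, Thy1 and Mfap5 did not pass, and Fap and Dpt were under the filter on every array. Dcn and Lum were not tested, as their means were below the filter. Dcn read 5 and 25.4 with LIF and 70.1 and 56.6 without, and Lum read 7.8 and 4.6 against 73.1 and 29.2. A wider list of feeder fibroblast genes, several of them also in the matrix and mesenchymal lists, had 9 of 13 tested members higher and 0 lower, with a median of 1.61. The part of such cells in the matrix result was not tested. With 1 array left out, the call was lost for Col1a1 without L1, L2, N1, N2 or either Rbp2-/- array with LIF (adjusted p up to 0.276).

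BMP and TGF-beta genes rose in 22 of 29 cases and fell in 0, with a median of 1.18. Among the ligands Bmp4, which induces mesoderm, read 186.6 and 117.3 against 807.3 and 861.8, and Bmp5 rose by 2.69 ± 0.34. The inhibitors Nog (2.31 ± 0.27) and Smad6 (1.82 ± 0.31) rose together with the targets Id1 and Id3, at 0.92 ± 0.26 and 1.16 ± 0.27. In the Nodal list 4 of 15 members fell and 1 rose, and its difference from the BMP list was not tested. Gdf3, a Nodal-like ligand, fell from 723.6 and 726.9 to 86.4 and 84.1, and Lefty1, a Nodal inhibitor, from 651 and 1486.1 to 107.3 and 185. Tdgf1 (Cripto), the Nodal co-receptor, fell by 1.95 ± 0.54. Nodal itself read 1296 and 1019.5 against 345.5 and 536.1 and missed the threshold (adjusted p = 0.0726). The 22 increases among BMP and TGF-beta genes became 11 without L2 and 13 without N1 or N2. The 4 decreases among Nodal genes became 2 without L2 and 7 without replicate 1 of Rbp2-/- without LIF. Leaving out 1 array ended the call of Id1 without L2, N1 or N2 (adjusted p up to 0.178), Lefty1 without L2 (adjusted p up to 0.104) and Tdgf1 without L1 or L2 (adjusted p up to 0.102).

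Wnt pathway genes rose in 18 of 35 cases and fell in 3, with a median of 1.02. The ligands Wnt5a and Wnt6 read 16.2 and 8.8 against 255.2 and 227.5, and 65.7 and 61.9 against 606.8 and 1088.6. Axin2, a feedback target used as a readout of beta-catenin signalling, went from 100.5 and 102.6 to 501 and 439.2. The secreted inhibitors Dkk1 and Frzb rose too, at 2.78 ± 0.29 and 2.79 ± 0.34. Among 24 FGF genes 4 rose and 4 fell (16.7% each, against 13.4% and 6.97% of all tested genes). Fgf4, the ES-cell ligand, read 931.5 and 590.5 against 73.7 and 72.2, and Fgf8, a ligand of the streak, read 1.6 and 46 against 201.7 and 261.2. In the retinoic acid list 2 of 11 rose (18.2%), Cyp26a1, which degrades retinoic acid, and Aldh1a2, which makes it. Notch genes had 3 members higher and 2 lower among 15 (20.0% and 13.3%). The 3 decreases among Wnt genes became 1 without L1, L2, N1 or N2. The 4 increases among FGF genes became 2 without L1 and 1 without N1. The 3 increases among Notch genes became 1 without L1, L2, N1 or N2.

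Chromatin genes were described in groups. Of 14 tested DNA methylation genes, 8 fell and 1 rose, with a median of -0.78. Dnmt3b, a de novo methyltransferase, read 3757.5 and 4392 with LIF and 1070.1 and 867.9 without, and Dnmt3a fell by 1.60 ± 0.37. Tet1, which oxidises methylcytosine, read 639.5 and 563.7 against 115.5 and 108.4. Dnmt1, the maintenance enzyme, was at -0.16 ± 0.27. Among 28 Polycomb genes 8 fell and 3 rose. Cbx7 and Phc1, subunits of the first repressive complex, fell by 2.45 ± 0.28 and 2.18 ± 0.28, and Ezh2, the methyltransferase of the other complex, by 0.69 ± 0.23 (adjusted p = 0.0488, a call lost under 12 of 21 alternatives). Among Polycomb genes, the 3 increases became 5 without either Rbp2-/- array with LIF and 1 without N1. The 8 decreases among Polycomb genes became 3 without L1, 5 without L2 or N1 and 4 without N2. The 8 decreases among DNA methylation genes became 4 without L1 and 5 without N1. A call was lost for Ezh2 without L1, L2, N1, N2, replicate 1 of Rbp2-/- without LIF or replicate 2 of Rbp2-/- without LIF (adjusted p up to 0.367).

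The floxed gene Kdm5a read 128.2 and 167.2 with LIF and 225.7 and 246.6 without, and its change of 0.63 ± 0.25 did not pass (adjusted p = 0.0929). Its relatives Kdm5b and Kdm5c were at -0.57 ± 0.30 and 0.02 ± 0.28. Of 22 H3K4 demethylases and methyltransferases 3 rose and 2 fell, namely Kmt2e, Kdm6b and Setd7 upward and Dpy30 and Ash2l downward. These shares, 13.6% and 9.09%, were near the 13.4% and 6.97% of all tested genes. Kdm6b acts on another lysine, K27. Chromatin remodeller subunits had 1 member higher and 1 lower among 24. The 3 increases among H3K4 enzymes became 1 without L1 or N2 and 5 without either Rbp2-/- array with LIF. Removing 1 array ended the call for Dpy30 without L1, L2, N1 or N2 (adjusted p up to 0.153), Kdm6b without L1, N1 or N2 (adjusted p up to 0.157) and Setd7 without L1 or N2 (adjusted p up to 0.16).

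Replication genes fell in 10 of 23 cases and rose in 0, with a median of -0.66. Cdt1, which licenses origins, read 3070.9 and 2442.8 against 1055 and 869.2, and Ccne1 (cyclin E1) fell by 1.35 ± 0.29. Of 22 mitosis genes, Cdc20 alone fell, and Mki67, a marker of cycling cells, was at -0.31 ± 0.29. Cdkn1a (p21), an inhibitor of cyclin-dependent kinases, read 591.7 and 327.2 against 1489.3 and 2302.4, and Ccnd2 (cyclin D2) rose by 2.53 ± 0.35. Their list of D cyclins, kinase inhibitors and pocket proteins had 3 of 13 members higher and 0 lower. The p53 target list held 7 increases and 1 decrease among 17, Cdkn1a included. Genes for ribosome synthesis and the Myc family fell in 11 of 25 cases and rose in 1, which was Mxd4, a Myc antagonist. The 10 decreases among replication genes became 4 without L1, 6 without L2 and 3 without N2. The 11 decreases among ribosome synthesis and Myc genes became 4 without L1 or L2, 6 without N1 and 2 without N2. The 7 increases among p53 targets became 4 without L1, L2 or N1 and 3 without N2. When an array was dropped, significance was lost for Ccne1 without L1 (adjusted p up to 0.0742) and Cdc20 without N2 (adjusted p up to 0.129).

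Among metabolic groups, the respiratory chain had 0 calls in 29 tested genes by limma, with a median of -0.00 and 0 genes at an unadjusted p under 0.05. In this list 3 genes were lower with either Rbp2-/- array with LIF left out and 3 after median centring. Amino acid and serine genes fell in 10 of 22 cases and rose in 2. Slc7a3, a transporter of cationic amino acids, read 1302.6 and 1770.3 against 142.5 and 140. Glycolysis genes had 3 members higher and 2 lower among 26 (11.5% and 7.69%, near the 13.4% and 6.97% of all tested genes). Of these, Pdk1, a kinase that holds pyruvate out of mitochondria, fell by 2.32 ± 0.34. Sterol and fatty acid genes rose in 3 of 23 cases (13.0%, near the 13.4% of all tested genes). Interferon and antigen presentation genes rose in 8 of 21 cases and fell in 0. B2m, the light chain of class I molecules, read 248.9 and 443.9 against 1292 and 1757.1, and Psmb8, an immunoproteasome subunit, read 18.7 and 18.5 against 190.3 and 155.5. Among glycolysis genes, the 3 increases became 0 without L1 or N2 and 1 without L2 or N1. Among sterol genes, the 3 increases became 5 without L2 or either Rbp2-/- array with LIF and 1 without N2. The 10 decreases among amino acid genes became 3 without L2 and 6 without N2.

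Imprinted genes rose in 9 of 22 cases and fell in 2. Igf2, a fetal growth factor, read 879.4 and 473 against 4705.5 and 3598.6, and Dlk1 and Mest rose by 2.86 ± 0.41 and 1.79 ± 0.24. Of 5 tested oncofetal HMGA, LIN28 and IGF2BP genes, 2 rose and 0 fell, with a median of -0.29, and 1 was called when L1, L2, N1 or N2 was left out. Germline genes fell in 5 of 8 tested cases, and 13 of 21 measured members were below the filter. Ddx4, a germ-cell helicase, read 140.6 and 115.9 against 10.8 and 12.6, and Dppa3 (Stella) read 1326.4 and 1219.7 against 190.5 and 161. Of the 11 tested housekeeping genes B2m alone passed, and Actb was at -0.02.

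**Figure D3:**
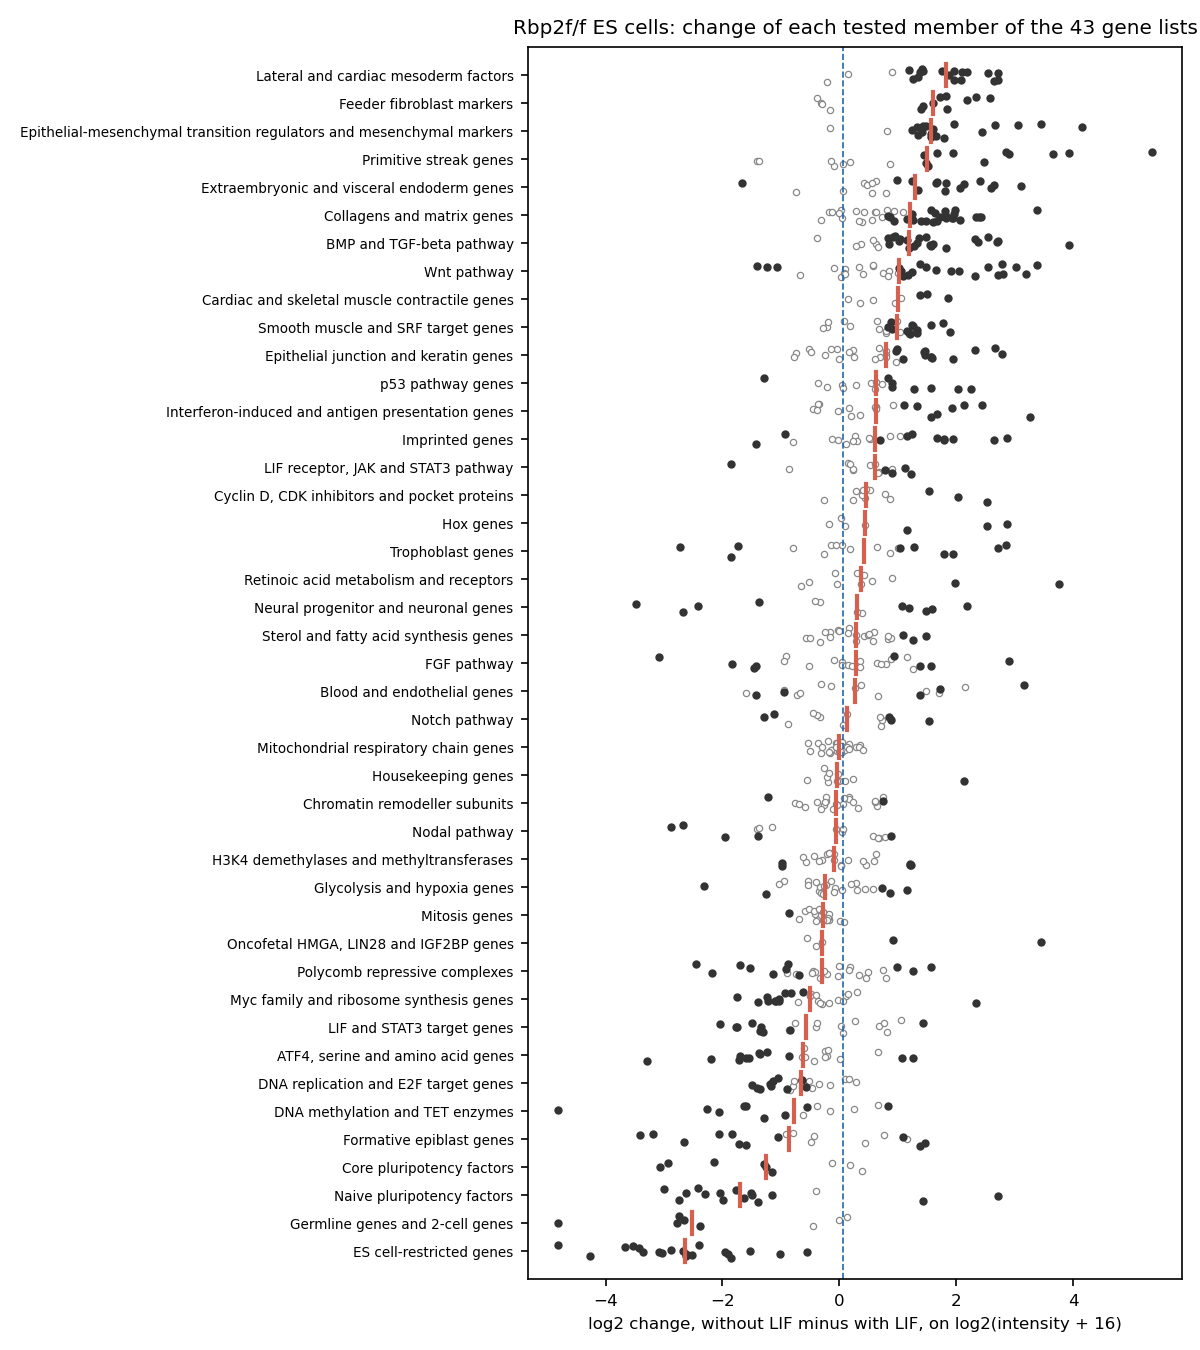
Change on LIF withdrawal in Rbp2f/f cells (x axis, difference of log2(intensity + 16), without LIF minus with LIF) for each tested gene of 43 lists (rows, ordered by median). Filled points passed at an adjusted p under 0.05, open points did not, red bars are list medians and the dashed line is the median of all genes, 0.07. Medians run from -2.65 for ES-restricted genes to 1.81 for lateral and cardiac mesoderm factors.

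The same withdrawal was measured in Rbp2-/- cells on other arrays, 2 per medium, 1 of which, replicate 2 with LIF, was dim. There 2512 of 10916 genes were called (23.0%), 2149 of them higher (19.7%). Of the 2226 Rbp2f/f calls, 1280 were also called in the same direction in Rbp2-/- cells, which is 57.5% of the Rbp2f/f and 51.0% of the Rbp2-/- calls, and 2 were called in opposite directions. Of the 1465 increases in Rbp2f/f cells 995 were shared, 67.9% of these and 46.3% of the 2149 increases in Rbp2-/- cells. Of the 761 decreases 285 were shared, 37.5% of these and 78.5% of the 363 decreases in Rbp2-/- cells. The dim array had a median log2 shift of -0.46 from the gene means, against -0.05 to 0.19 on the other arrays. These overlaps use the values as deposited, and the part of the dim array in the split between directions was not tested. Aplnr changed by 3.44 and Cdh11 by 4.30 in Rbp2-/- cells, against 5.35 and 4.15 in Rbp2f/f. Pou5f1 was at -2.59 and Dnmt3l at -3.82, against -3.07 and -4.81.

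No gene passed the test of the difference between the genotypes' responses (0 of 10916 by limma, smallest adjusted p = 0.246), and 1266 had an unadjusted p under 0.05. The number passing at an adjusted p under 0.05, 0 here, moved with single arrays. It moved most without replicate 1 of Rbp2-/- with LIF, which leaves the dim array alone in its group. It also moved without replicate 2 of Rbp2-/- without LIF and without replicate 1 of Rbp2f/f without LIF. The 5 genes with the smallest p were Magel2, Car3, Timp3, Gbp2 and Spin2c. Gbp2, an interferon-induced GTPase, read 30.6 and 89.5 with LIF and 533.3 and 803.4 without in Rbp2f/f cells, against 327.7 and 326.2, and 315.8 and 627.6, in Rbp2-/- cells. Car3, a carbonic anhydrase, read 56 and 54.5 against 257.1 and 306.5 in Rbp2f/f cells. In Rbp2-/- cells its values were 139.1 and 143.6 with LIF and 123.8 and 172.1 without. In the withdrawal test in Rbp2f/f cells, with 1 array left out, the call was lost for Magel2 without L1, L2, N1 or N2 (adjusted p up to 0.235) and Spin2c without L1, L2 or N1 (adjusted p up to 0.312).

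**Figure D4:**
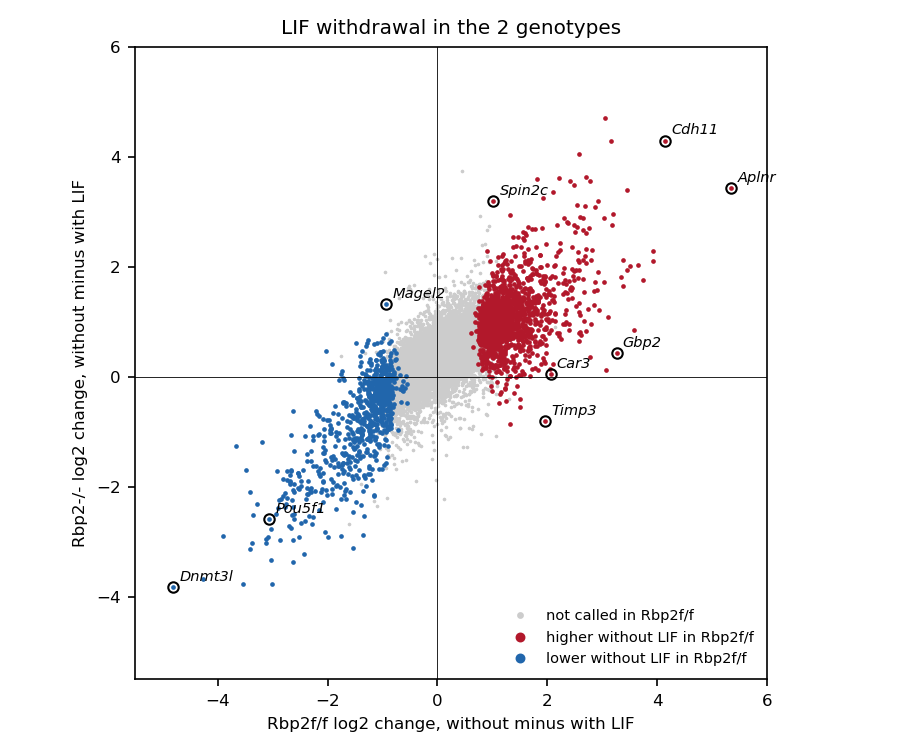
Change of each tested gene on LIF withdrawal, as a difference of log2(intensity + 16), in Rbp2f/f cells (x axis) and Rbp2-/- cells (y axis), from separate arrays. Red and blue points are genes higher and lower without LIF in Rbp2f/f cells, grey points are not called there, and circles mark the 5 genes with the smallest p for the difference together with Aplnr, Cdh11, Pou5f1 and Dnmt3l.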

How the data were processed

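RNA from mouse ES cells was hybridised to short-oligonucleotide arrays (Affymetrix mouse 430 2.0). Per the deposited tables, the authors summarised each probe set on each array as 1 linear intensity. Which software, background correction and scaling they used is not given in the sources used here. The number of arrays, 2 per group, limits the precision. Of 45101 probe sets, 34945 had 1 gene symbol and were used, 932 had several, and 9211 had none; 13 controls with a symbol were left out. Each gene took its probe set with the highest mean, and the 10916 of 18193 genes at or above the 40th percentile of mean intensity (28.3) were tested. Log2(intensity + 16) was fitted with limma 3.58.1 in R 4.3.3, as 4 group means on all 8 arrays with a mean-variance trend (4 residual and 10.9 prior degrees of freedom). P-values are two-sided, Benjamini-Hochberg adjusted over all genes.

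The members and the 43 gene lists were chosen with earlier results of these data known. Of 993 list entries, 755 genes were tested, 175 were under the filter and 63 had no probe set with that symbol alone. Named genes were Kdm5a, the 15 largest increases and decreases among called genes with no overlap between the arrays of the 2 media, fixed anchors and up to 4 genes with the smallest p per list, the 5 with the smallest interaction p, and further list members as examples. Of 210 called genes among these with several probe sets, 171 had all probe sets changing in the same direction, and 0 had another probe set called in the opposite one. The fit was checked on simulated data for this comparison (10916 genes): 16 of 66 changes of 1 on the log2 scale, 56 of 67 of 2 and 65 of 67 of 3 were recovered, with 4 false calls. Alternatives covered scaling, pseudocount, filter, probe-set summary, variance model, threshold, replicate block and each array left out.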

Additional observations from a re-analysis of the deposited data

How the results depend on the processing

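Against 2226 calls (1465 higher, 761 lower), array weights gave 3705 (2249 and 1456), the fit on the 4 Rbp2f/f arrays alone 3430 (1379 lower) and an adjusted p under 0.01 1069 (736 and 333). Genes lower numbered 1881 after median centring, 1435 after quantile normalization of 8 arrays and 1592 after that of the 4 Rbp2f/f arrays. The array-weight fit shared 2225 of the 2226 calls, median centring 2022 and quantile normalization of 8 arrays 2058. With 1 array left out there were 891 to 3367 calls, 557 to 2008 higher and 330 to 1359 lower, and 0 to 1414 genes for the difference between genotypes. Other settings changed these counts by under 1.5 times, apart from 10 genes for that difference with a replicate block. Across all tested genes, arrays of the same number did not deviate together (correlation of deviations -0.0568 over 1 pair of groups). A few genes did so in both media, as given below, which such a correlation cannot show. The numbers are thus not shown to pair the samples, and pairing is not excluded. With the replicate block 2398 genes were called, 2187 of them shared. Of 245 genes followed through the alternatives, 0 reversed a call; 121 of the 180 called ones passed in every alternative fit that tested them at the same threshold. Without a filter on dim genes 21 lost the call. The cause was not tested. An array left out leaves a lone array, assumed to vary like the other groups.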

Other observations

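Some genes differed between replicates more than between media, and these were picked after their values were seen. Meg3, Rian and Mirg, noncoding RNAs of the imprinted Dlk1-Dio3 cluster, were bright in replicate 1 and dim in replicate 2 in both media. Rian read 163.3 and 9.4 with LIF and 258.3 and 17.6 without. Meg3 read 295.6 and 65.5 with LIF and 467.5 and 45.1 without, and Mirg 123.1 and 10.5, and 124.4 and 6. In Rbp2-/- cells Rian read 247.9 and 374.9 with LIF and 490 and 400.6 without. Tcl1b3, a gene of the Tcl1 family, read 1889.5 and 594.9 with LIF and 1936.3 and 391.7 without. In all, 4 of the 10916 tested genes were higher in replicate 1 than in replicate 2 by at least 1.5 on the log2 scale in both media, these 4, and 2 were lower, Stmn4 and Fam131c. Dlk1, a protein-coding gene of the same cluster, did not follow them: it read 43.3 and 44.9 with LIF and 380.7 and 464.4 without.

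Without LIF, 9 genes were at least 2 log2 units higher in N1 than in N2 and 0 the other way, the globins Hbb-bh1, Hba-x and Hbb-y among the 9.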
